A study of Mus musculus with 8 samples.

Results

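The genes described here are the mouse DNA methyltransferases Dnmt1, Dnmt3a and Dnmt3b, the catalytically inactive family member Dnmt3l, the maintenance cofactor Uhrf1, and the 3 Tet dioxygenases Tet1, Tet2 and Tet3. They were chosen by symbol, and all 8 were found among the 36808 genes of the expression table. RNA-seq values came from 8 mouse libraries, with a single library for each condition, so differences carry no replicate error and no p-value is given. The study asked how Polycomb Repressive Complex 2 (PRC2), which methylates histone H3 at lysine 27, acts when embryonic stem cells (ESCs) commit to the spinal motor neuron (SMN) lineage, and also measured DNA methylation, which was not analysed here.

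The wild-type ESC lines were E14, of 129/Ola background, and CJ7, of 129/S background. Suz12Δ ESCs have a C57/BL6 background and a truncated SUZ12, a core PRC2 subunit. Eednull ESCs have a BALB/cR1 background and carry a point mutation in Eed, which encodes another core subunit. Suz12GT cells share the 129/Ola background of E14 and carry a gene trap that fuses SUZ12 to β-galactosidase. E14, Suz12GT, Suz12Δ and Eednull cells were also collected at day 5 of SMN differentiation, in which LIF was withdrawn and retinoic acid and a Hedgehog agonist were given. A Suz12GT ESC library was not analysed here. Each mutant genotype is 1 line, and outside Suz12GT the background differs from E14, so genotype, line and strain cannot be told apart. All ESCs had been grown on irradiated fibroblasts, which were removed by brief plating before collection. The labels tie the CJ7 library to a batch with a further library whose name matches that of Eednull ESCs, so the E14 and Eednull ESC libraries may come from different batches.

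Cytosine methylation in mammals sits mostly at CpG dinucleotides. DNMT3A and DNMT3B write it on unmethylated DNA, DNMT3L binds them and stimulates their activity, and DNMT1, brought to replicated DNA by UHRF1, copies it to the new strand. The paper also cites a report that PRC2 recruits DNMT3L to its targets, where DNMT3L competes with active DNMTs and prevents methylation. TET proteins oxidize 5-methylcytosine to 5-hydroxymethylcytosine and further products, which opens a path to its removal. ESCs are known for high Tet1, Dnmt3b and Dnmt3l expression, and Tet3 is known from neural cells and the oocyte.

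Values are FPKM, fragments relative to transcript length and to all mapped fragments of the library, as the authors deposited them. They are per length, so levels of different genes can be compared within a library. To form log2 ratios, 0.1 was added to both FPKM values, and a gene had to reach 0.1 FPKM in at least 1 of the libraries compared. It was called higher or lower when the ratio was at least 2-fold. The number of reads is unknown, and FPKM values summed to between 389165 and 797748 per library, with 7.69% to 35.2% of the sum in the 10 highest genes. Suz12 itself was at 41.3 FPKM in E14 ESCs and 6.21 FPKM in Suz12Δ ESCs, whereas at day 5 it was 16.2 FPKM in E14, 10.3 FPKM in Suz12GT and 11.6 FPKM in Suz12Δ cells. The summed level of 12 fibroblast markers was 121 FPKM in E14, 137 in CJ7, 643 in Suz12Δ and 345 in Eednull ESCs, and 7.10, 24.3, 144 and 76.0 FPKM in E14, Suz12GT, Suz12Δ and Eednull cells at day 5. None of these markers was listed at 0 in an ESC library, and 1 was at day 5, in E14. The ESC marker Pou5f1 was between 58.1 FPKM (Suz12Δ) and 149 FPKM (Eednull) in ESCs, and between 0.302 FPKM (E14) and 2.12 FPKM (Suz12Δ) at day 5. In bulk RNA, fewer cells of a type and less RNA per cell cannot be told apart.

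The largest expression differences of these genes lay between stages, though not for every gene. In the deposited FPKM Dnmt1 and Uhrf1 differed by up to 2.13-fold and 2.10-fold among ESC lines, more than between the stages of any line. Dnmt3b, Dnmt3l and Tet1 were higher in all 4 ESC libraries than in all 4 day 5 libraries, which held for 6.65% of the genes in the table. Tet3 was higher in all 4 day 5 libraries than in all 4 ESC libraries, which held for 12.4% of genes. In the deposited FPKM such a separation was found for 4 of the 8 genes here, against 19% of 27963 genes in the table. The ESC and day 5 ranges of Dnmt1, Uhrf1, Dnmt3a and Tet2 overlapped. With the values of each library divided by their sum, Dnmt1 was also higher in all 4 day 5 libraries than in all 4 ESC libraries. The share of all genes separated on that scale was not counted.

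**Figure D1:**
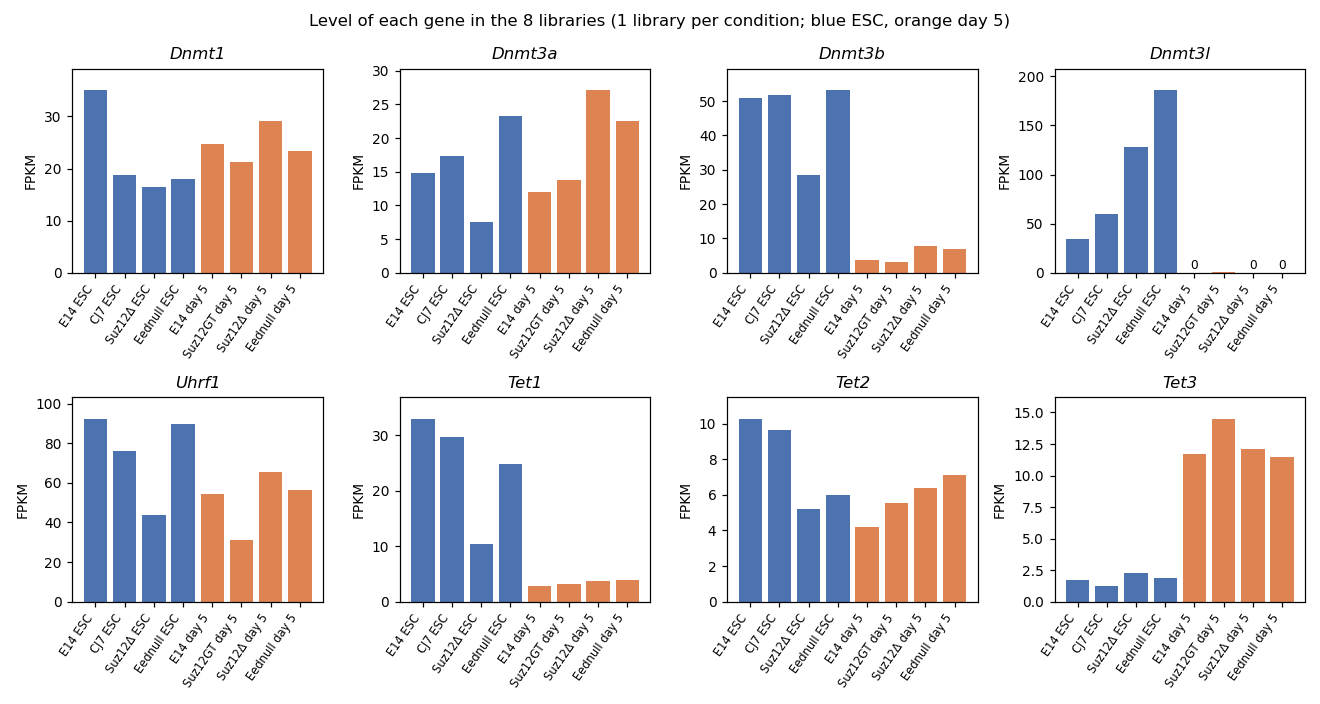
FPKM (y axis, linear, starting at 0) of the 8 genes in the 8 libraries (x axis), with 1 library per bar, ESCs in blue and day 5 in orange. Dnmt3l is highest in Eednull ESCs at 186 FPKM and listed at 0 in 3 day 5 libraries, and Tet3 stands between 11.5 and 14.5 FPKM at day 5 against 1.26 to 2.26 FPKM in ESCs.

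Among the de novo enzymes, Dnmt3b (chr2:153475186-153513466, plus strand, GENCODE vM1 on NCBI build 37) was the ESC form. It was at 50.9 FPKM in E14, 51.7 FPKM in CJ7, 28.4 FPKM in Suz12Δ and 53.1 FPKM in Eednull ESCs. At day 5 it was at 3.58 FPKM in E14, 3.05 FPKM in Suz12GT, 7.74 FPKM in Suz12Δ and 6.96 FPKM in Eednull cells. In the deposited FPKM Suz12Δ ESCs were low among the ESCs, and the Suz12Δ and Eednull cells were the upper pair at day 5. With values divided by their sum, Suz12Δ ESCs were above E14 and CJ7 ESCs for Dnmt3b. The log2 ratio of day 5 to ESCs was -3.79 in E14, -1.86 in Suz12Δ and -2.91 in Eednull cells. The gene 7530422B04Rik overlaps Dnmt3b on the opposite strand, and strand was not stated for these libraries, so their reads cannot be told apart. The same holds for Dnmt3a, which overlaps Gm10485 and AC159324.1.

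Dnmt3a (chr12:3806007-3914443, plus strand), the broadly expressed de novo enzyme, showed no such separation of stages. It was at 14.8 FPKM in E14, 17.4 FPKM in CJ7, 7.58 FPKM in Suz12Δ and 23.2 FPKM in Eednull ESCs. The day 5 values were 12.1 FPKM in E14, 13.8 FPKM in Suz12GT, 27.1 FPKM in Suz12Δ and 22.5 FPKM in Eednull cells. In the deposited FPKM Suz12Δ cells thus held both the lowest and the highest value. The log2 ratio of day 5 to ESCs was 1.82 in Suz12Δ cells, against -0.29 in E14 and -0.04 in Eednull cells. Within each library, Dnmt3b stood at 2.29 to 3.75 times Dnmt3a in the 4 ESC libraries, and Dnmt3a stood at 3.24 to 4.50 times Dnmt3b in the 4 day 5 libraries. The order of the 2 enzymes was thus opposite at the 2 stages in E14, Suz12Δ and Eednull cells, the lines with both stages, and this ratio does not depend on the scaling between libraries. With values divided by their sum, the Dnmt3a ratio of day 5 to ESCs turned positive in E14 (0.41) and Eednull cells (0.44). On that scale E14 ESCs, and not Suz12Δ ESCs, held the lowest Dnmt3a value.

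Dnmt3l (chr10:77504692-77526367, plus strand) varied most of all 8 genes among the ESCs. It was at 34.3 FPKM in E14, 60.0 FPKM in CJ7, 128 FPKM in Suz12Δ and 186 FPKM in Eednull ESCs. It was listed at 0 in E14, Suz12Δ and Eednull cells at day 5, and stood at 1.01 FPKM in Suz12GT cells. The wild-type and mutant ESCs did not overlap, and the highest ESC value was 5.41 times the lowest. An exact 0 in this table can be a failed estimate, since Cdt1 and Tubb3, genes in wide use in dividing cells and neurons, were listed at 0 in all 8 libraries, and so no fold is given for the fall of Dnmt3l. Dnmt3l overlaps Aire, on the opposite strand, which was at 2.98, 1.36, 3.59 and 4.57 FPKM in E14, CJ7, Suz12Δ and Eednull ESCs. Aire was listed at 0 in the same 3 day 5 libraries and at 0.136 FPKM in Suz12GT cells, and without strand the reads of the 2 genes cannot be told apart.

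Within the Dnmt3 family, Dnmt3b led in E14 ESCs, Dnmt3l in the other 3 ESC libraries and Dnmt3a in all 4 day 5 libraries. Dnmt3l made up 34.3% of the summed Dnmt3 FPKM in E14, 46.5% in CJ7, 78.1% in Suz12Δ and 70.9% in Eednull ESCs. At day 5 Dnmt3a took 77.1% in E14, 77.2% in Suz12GT, 77.8% in Suz12Δ and 76.4% in Eednull cells. The share of Dnmt3a at day 5 was thus within 76.4% to 77.8% in all 4 lines, while the sum of the family ranged from 15.6 FPKM in E14 to 34.8 FPKM in Suz12Δ cells. In ESCs the same sum ranged from 100 FPKM in E14 to 262 FPKM in Eednull cells.

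**Figure D2:**
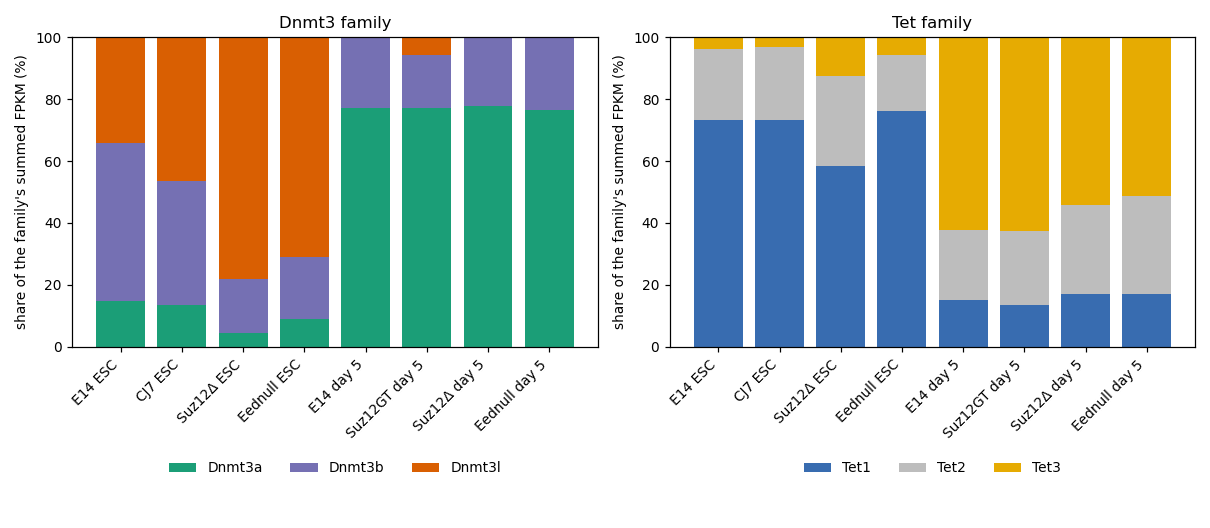
Share (%) of each member in the summed FPKM of the Dnmt3 family (left) and of the Tet family (right), with 1 stacked bar for each of the 8 libraries. Dnmt3l takes 34.3% to 78.1% of the Dnmt3 bar in ESCs and Dnmt3a takes 76.4% to 77.8% at day 5, while Tet1 is the widest Tet segment in ESCs and Tet3 at day 5.

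The Tet genes exchanged places between the stages. Tet1 (chr10:62267318-62361866, minus strand), which encodes the TET protein best known from ESCs, was at 32.9 FPKM in E14, 29.8 FPKM in CJ7, 10.4 FPKM in Suz12Δ and 24.9 FPKM in Eednull ESCs. After differentiation it was at 2.84 FPKM in E14, 3.11 FPKM in Suz12GT, 3.80 FPKM in Suz12Δ and 3.82 FPKM in Eednull cells. Suz12Δ ESCs were again the low ESC library, and the day 5 values lay within a factor of 1.34. The log2 ratio of day 5 to ESCs was -3.49 in E14, -1.43 in Suz12Δ and -2.67 in Eednull cells.

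Tet3 (chr6:83312367-83391672, minus strand) was at 1.68 FPKM in E14, 1.26 FPKM in CJ7, 2.26 FPKM in Suz12Δ and 1.88 FPKM in Eednull ESCs. At day 5 it was at 11.7 FPKM in E14, 14.5 FPKM in Suz12GT, 12.1 FPKM in Suz12Δ and 11.5 FPKM in Eednull cells. The log2 ratio of day 5 to ESCs was 2.73 in E14, 2.37 in Suz12Δ and 2.55 in Eednull cells, so that Tet3 was higher at day 5 in each line with both stages. The day 5 values lay within a factor of 1.26. Summed over 11 neural and motor neuron markers, the day 5 level was 150 FPKM in E14, 129 in Suz12GT, 24.3 in Suz12Δ and 22.0 in Eednull cells. Tubb3, among these markers, was listed at 0 in every library. The relation of these markers to the Tet3 level was not tested. Genes of chromosome 6, which holds Tet3, had a median log2 ratio of Suz12Δ to E14 that was 0.22 above that of the other autosomes in ESCs and 0.29 above it at day 5. The part of this shift in the Tet3 ratio was not tested.

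Tet2 (chr3:133126643-133207354, minus strand), whose protein lacks the CXXC domain found in TET1 and TET3, had the narrowest range of the Tet genes. It was at 10.3 FPKM in E14, 9.67 FPKM in CJ7, 5.20 FPKM in Suz12Δ and 5.97 FPKM in Eednull ESCs. In day 5 cells it was at 4.22 FPKM in E14, 5.52 FPKM in Suz12GT, 6.41 FPKM in Suz12Δ and 7.10 FPKM in Eednull cells. In the deposited FPKM the wild-type ESCs were above the mutant ESCs, and E14 was the lowest library at day 5. Tet2 therefore fell only in E14 by the 2-fold rule, with a log2 ratio of -1.26, against 0.30 in Suz12Δ and 0.25 in Eednull cells. The Suz12Δ value was -0.08 with libraries scaled to the same 75th percentile, and the E14 value was -0.56 with values divided by their sum.

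By shares, Tet1 made up 73.4% of the summed Tet FPKM in E14, 73.1% in CJ7, 58.3% in Suz12Δ and 76.0% in Eednull ESCs, and Tet3 between 3.11% (CJ7) and 12.6% (Suz12Δ). At day 5 Tet3 made up 62.3% in E14, 62.6% in Suz12GT, 54.2% in Suz12Δ and 51.3% in Eednull cells. Tet1 was 4.62 to 23.5 times Tet3 in the ESC libraries, and Tet3 was 3.01 to 4.65 times Tet1 at day 5. The summed Tet level differed less, at 17.9 to 44.8 FPKM in ESCs and 18.8 to 23.1 FPKM at day 5.

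The maintenance genes were expressed at both stages in every library. Dnmt1 (chr9:20711650-20757317, minus strand) was at 35.0 FPKM in E14, 18.7 FPKM in CJ7, 16.4 FPKM in Suz12Δ and 18.1 FPKM in Eednull ESCs. At day 5 it was at 24.6 FPKM in E14, 21.2 FPKM in Suz12GT, 29.1 FPKM in Suz12Δ and 23.4 FPKM in Eednull cells. In the deposited FPKM E14 ESCs stood apart from the other 3 ESC lines, wild-type CJ7 included. With values divided by their sum, Dnmt1 in E14 ESCs was close to that in Suz12Δ ESCs. The log2 ratio of day 5 to ESCs was -0.50 in E14, 0.82 in Suz12Δ and 0.37 in Eednull cells, and with CJ7 as the wild-type ESC library in place of E14 that of E14 day 5 cells changed sign, to 0.39. With values divided by their sum it was 0.20.

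Uhrf1 (chr17:56442744-56462909, plus strand) was above Dnmt1 in all 8 libraries. It was at 92.0 FPKM in E14, 76.1 FPKM in CJ7, 43.7 FPKM in Suz12Δ and 89.5 FPKM in Eednull ESCs. At day 5 it was at 54.6 FPKM in E14, 31.3 FPKM in Suz12GT, 65.3 FPKM in Suz12Δ and 56.4 FPKM in Eednull cells. In the deposited FPKM the low libraries were Suz12Δ among the ESCs and Suz12GT at day 5. With values divided by their sum, CJ7 was the lowest of the ESCs and Suz12GT stayed the lowest at day 5. Relative to Pcna, the replication clamp, a comparison chosen after the values were seen, Uhrf1 lay between 0.387 and 0.452 times Pcna in the 4 ESC libraries, Suz12Δ at 0.408 included. At day 5 the same ratio was 0.345 in E14, 0.329 in Suz12GT, 0.527 in Suz12Δ and 0.464 in Eednull cells. Suz12GT cells were thus near E14 on this ratio, and the other 2 mutants were above both. Pcna itself was at 158 FPKM in E14 and 95.2 FPKM in Suz12GT cells at day 5. That log2 ratio, -0.73, was the lowest of the 13 S phase genes tested, whose median was -0.34. Mcm4, of the same list, was at 37.5 FPKM in E14 and 29.7 FPKM in Suz12GT cells. The nearness of Suz12GT to E14 therefore depends on Pcna as the reference.

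By the 2-fold rule, 1 of the 8 genes (Tet3) was higher and 4 (Dnmt3b, Dnmt3l, Tet1 and Tet2) were lower in E14 cells at day 5 than in E14 ESCs, against 44.1% of all genes tested past 2-fold in either direction, 18.3% higher and 25.8% lower (32.4% and 17.0% with values divided by their sum). In Suz12Δ cells Tet3 and Dnmt3a were higher and Dnmt3b, Dnmt3l and Tet1 lower, against a background of 39.5%, of which 26.9% higher and 12.6% lower (17.7% and 17.2% with 75th percentile scaling, 21.3% and 15.7% with values divided by their sum). In Eednull cells Tet3 was higher and the same 3 genes were lower, against 43.2% of all genes, 18.4% higher and 24.8% lower (29.5% and 19.6% with values divided by their sum). Dnmt3l is counted as lower in each line although it was listed at 0 at day 5. The median of all genes was -0.20 in E14, 0.43 in Suz12Δ and -0.08 in Eednull cells. In E14, 3.46% of genes had a lower ratio than Dnmt3b, 4.35% a lower ratio than Tet1 and 4.45% a higher ratio than Tet3.

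**Figure D3:**
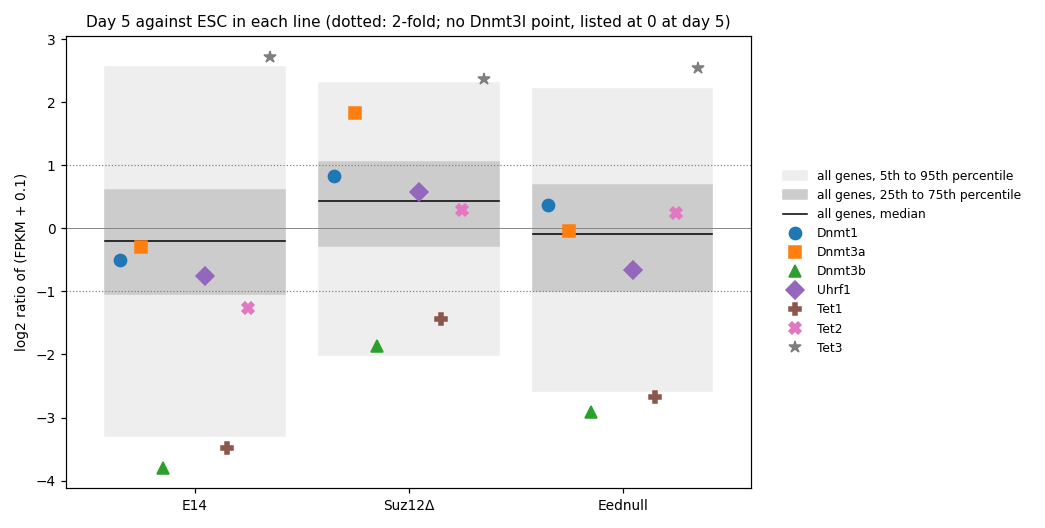
Log2 ratio of day 5 to ESCs (y axis) for each gene in E14, Suz12Δ and Eednull cells (x axis), with 1 library per stage. Grey boxes span the 5th to 95th and 25th to 75th percentiles of all genes tested, the black line is their median and dotted lines mark 2-fold. Tet3 lies above the upper edge of the pale box in all 3 lines (2.73, 2.37 and 2.55), Dnmt3b and Tet1 lie below the lower edge in E14 and Eednull cells, and in Suz12Δ cells both stay inside it.

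The promoters of the genes that separated the stages in the deposited FPKM are shown because these 4 genes moved together or in opposition at day 5. They are RefSeq promoters of GRCm38.p6, a build other than that of the expression table, and run from 250 bases before the start site to 50 bases after it, 5′ to 3′ on the gene's strand, with each CpG in capitals. The Dnmt3b window lies at chr2:153649199-153649498 (plus strand), that of Tet1 at chr10:62887275-62887574 (minus strand) and that of Tet3 at chr6:83441629-83441928 (minus strand). The Dnmt3l window at chr10:78042037-78042336 (plus strand) is the first of 3 start sites.
Dnmt3b: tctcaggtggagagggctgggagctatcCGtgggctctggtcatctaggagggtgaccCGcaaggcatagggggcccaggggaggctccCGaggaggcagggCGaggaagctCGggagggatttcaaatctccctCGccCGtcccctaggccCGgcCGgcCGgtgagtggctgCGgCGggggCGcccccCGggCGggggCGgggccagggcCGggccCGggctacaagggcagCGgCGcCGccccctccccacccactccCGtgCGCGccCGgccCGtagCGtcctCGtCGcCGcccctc
Tet1: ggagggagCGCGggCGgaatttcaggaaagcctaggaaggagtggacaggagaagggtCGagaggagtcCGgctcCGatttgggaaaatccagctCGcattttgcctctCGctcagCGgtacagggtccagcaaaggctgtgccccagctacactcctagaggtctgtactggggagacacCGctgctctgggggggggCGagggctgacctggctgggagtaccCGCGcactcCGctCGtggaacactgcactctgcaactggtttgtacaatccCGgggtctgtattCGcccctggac
Tet3: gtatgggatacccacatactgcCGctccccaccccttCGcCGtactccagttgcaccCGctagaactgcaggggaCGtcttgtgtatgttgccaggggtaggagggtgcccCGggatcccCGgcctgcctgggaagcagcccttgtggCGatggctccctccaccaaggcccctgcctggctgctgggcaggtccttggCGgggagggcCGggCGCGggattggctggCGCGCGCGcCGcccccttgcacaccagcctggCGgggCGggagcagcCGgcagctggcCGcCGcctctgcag
Dnmt3l: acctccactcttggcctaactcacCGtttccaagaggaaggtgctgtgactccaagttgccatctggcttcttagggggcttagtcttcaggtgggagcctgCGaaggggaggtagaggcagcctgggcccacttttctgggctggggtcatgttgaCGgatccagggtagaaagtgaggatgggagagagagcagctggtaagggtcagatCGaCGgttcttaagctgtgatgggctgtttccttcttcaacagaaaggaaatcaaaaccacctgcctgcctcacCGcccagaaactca

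These windows hold 30 CpG in Dnmt3b, 17 in Tet1, 22 in Tet3 and 6 in Dnmt3l, where the median of 32851 mouse promoters was 7. The other Dnmt3l start sites hold 4 and 3 CpG, so all 3 Dnmt3l promoters were below the median, alone among the 8 genes in having no promoter above it. At the other end, the Tet2 window holds 57 CpG, a number reached by 0.152% of promoters. The 6 letters GGGCGG, a GC box, were found on either strand in 12 of the 15 promoters of the 8 genes and in 35.7% of all promoters. These letters hold a CpG themselves, so the count is not independent of CpG content, and the windows of the first 2 Dnmt3a start sites overlap. A match to these letters describes the sequence and says nothing of binding.

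Among the ESCs, Dnmt3l was higher in both mutants than in both wild-type lines. The log2 ratio to E14 was 1.90 in Suz12Δ and 2.43 in Eednull ESCs, which are 3.75-fold and 5.41-fold, and the ratio to CJ7 was 1.10 in Suz12Δ (2.14-fold) and 1.63 in Eednull ESCs (3.09-fold). CJ7 ESCs themselves stood 0.81 above E14 on the log2 scale, a wild-type difference below 2-fold. Dnmt3l was the only 1 of the 8 genes at least 2-fold above both wild-type lines in both mutants, a grouping chosen after the values were seen, and 3.4% of 26545 genes were. None of the 8 was at least 2-fold below both wild-type lines in both mutants, which 1.31% of genes were. By smaller differences, both mutants also lay above both wild-type lines for Tet3 and below both for Tet1, Tet2 and Dnmt1. The share of all genes with such an order was not counted. For Dnmt1 the order rests on 18.1 FPKM in Eednull against 18.7 FPKM in CJ7 ESCs. With values divided by their sum, the order held for Tet3 and was lost for Tet1, Tet2 and Dnmt1. The comparisons of mutants with wild-type lines share their control libraries, and so they are not independent of each other.

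Relative to the ESC marker Pou5f1, Dnmt3l was also higher in both mutants. It was at 0.264 times Pou5f1 in E14, 0.424 times in CJ7, 2.21 times in Suz12Δ and 1.24 times in Eednull ESCs. Dnmt3b, in contrast, was at 0.391, 0.365, 0.490 and 0.355 times Pou5f1 in the same 4 libraries. Tet1 was at 0.253, 0.210, 0.180 and 0.167 times Pou5f1. Suz12Δ ESCs therefore held the lowest Dnmt3b value in FPKM and the highest relative to Pou5f1, while both mutants were below both wild-type lines for Tet1 relative to Pou5f1. Pou5f1 was chosen as the reference after the values were seen, and these ratios do not depend on the scaling between libraries. They do depend on the marker for Dnmt3b and Tet1. Nanog was at 155, 147, 88.0 and 107 FPKM in the same 4 libraries, and relative to it Suz12Δ ESCs were the lowest for Dnmt3b. Zfp42 was at 113, 142, 29.2 and 62.9 FPKM, and relative to it both mutants were above both wild-type lines for Tet1.

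In Suz12Δ ESCs 1 gene (Dnmt3l) was higher and 3 (Dnmt1, Uhrf1 and Tet1) were lower than in E14 ESCs, where 40.8% of all genes were past 2-fold, 18% higher and 22.8% lower (23.5% and 14% with 75th percentile scaling, 39.0% and 6.48% with values divided by their sum). The log2 ratios were -1.09 for Dnmt1, -1.07 for Uhrf1 and -1.65 for Tet1, and those of Dnmt3a, Dnmt3b and Tet2 were -0.95, -0.84 and -0.97, with a median of -0.28 over all genes. Tet3, at 0.40, was the only other gene with a positive value. With libraries scaled to the same 75th percentile the values of Dnmt1 and Uhrf1 were -0.72 and -0.70, short of 2-fold, and with values divided by their sum Tet1 was at -0.62 and Tet3 at 1.38. On that last scale Dnmt3a, Dnmt3b and Tet2 turned to 0.07, 0.19 and 0.06, as the median of all genes moved to 0.70, and Dnmt1 and Uhrf1 were at -0.06 and -0.04. Alongside these values, all 12 fibroblast markers were at least 2-fold higher in Suz12Δ than in E14 ESCs (median log2 ratio 2.25), 9 of 11 ESC markers were lower (median -1.56) and 7 of 13 S phase genes were lower (median -1.07). After division by the sum these counts were 12 of 12, 2 of 11 and 0 of 13. The part of these markers in the values of the 8 genes was not tested.

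In Eednull ESCs Dnmt3l alone passed 2-fold against E14, where 34.3% of all genes did, 22.4% higher and 11.9% lower (30.1% and 6.73% with values divided by their sum). Dnmt1 was at -0.95, a value near that of CJ7 against E14 (-0.90), and Tet2 was at -0.77. Dnmt3a was at 0.65, while Dnmt3b (0.06), Uhrf1 (-0.04), Tet3 (0.15) and Tet1 (-0.40) lay closer to 0. With values divided by their sum Dnmt3a passed 2-fold (1.15) and Uhrf1 and Tet1 turned to 0.46 and 0.10. Of 12 fibroblast markers 5 were at least 2-fold higher and the other 7 were higher by less (median 0.83), and 2 of 11 ESC markers were lower (median -0.53). Their part in the Dnmt3l value was not tested. The 2 wild-type lines differed by 2-fold in none of the 8 genes, where 30.4% of all genes were past 2-fold, although Dnmt3l passed it (1.02) with 75th percentile scaling.

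**Figure D4:**
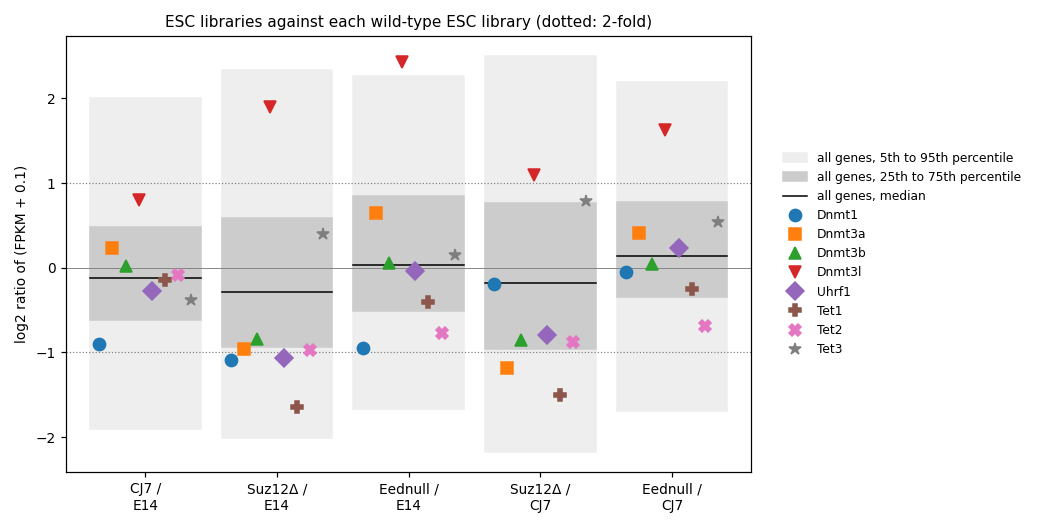
Log2 ratio (y axis) of the 8 genes in CJ7, Suz12Δ and Eednull ESCs against E14 ESCs, and in Suz12Δ and Eednull ESCs against CJ7 ESCs (x axis), with 1 library per line. Grey boxes span the 5th to 95th and 25th to 75th percentiles of all genes tested, the black line is their median and dotted lines mark 2-fold. Dnmt3l is the highest of the 8 points in every column, and is above 2-fold in all 4 mutant columns (1.90, 2.43, 1.10 and 1.63).

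With CJ7 as the wild-type line, Dnmt3l remained higher in both mutants, and Dnmt1 lay near CJ7 in both, at -0.19 in Suz12Δ and -0.05 in Eednull ESCs. In Suz12Δ ESCs Dnmt3a (-1.19) and Tet1 (-1.50) were lower than in CJ7, where 45.1% of all genes were past 2-fold, 21.1% higher and 24% lower. In Eednull ESCs no other gene passed 2-fold against CJ7, where 31.2% of all genes did, 20.5% with the higher value in Eednull ESCs. Between the 2 mutants, Dnmt3a (-1.60), Uhrf1 (-1.03) and Tet1 (-1.25) were lower in Suz12Δ than in Eednull ESCs, against 37.5% of all genes.

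At day 5 Dnmt3a and Dnmt3b had the largest ratios of the 7 genes with values in Suz12Δ and in Eednull cells against E14. In Suz12Δ cells Dnmt3a and Dnmt3b were higher than in E14, with log2 ratios of 1.16 and 1.09, where 36.1% of all genes were past 2-fold, 26.6% higher and 9.52% lower. Dnmt3b was short of 2-fold, at 0.94 with 75th percentile scaling and at 0.93 with a pseudocount of 1. In Eednull cells the same ratios were 0.90 and 0.94, short of 2-fold, and none of the 8 genes passed it, where 33% of all genes did. With values divided by their sum Dnmt3a (1.17), Dnmt3b (1.22) and Tet2 (1.01) passed it in Eednull cells. The other 5 genes with values lay between 0.05 and 0.59 in Suz12Δ and between -0.07 and 0.74 in Eednull cells, with Tet2 the highest of them in both. The median of all genes was 0.26 in Suz12Δ and 0.08 in Eednull cells, and no gene of the 8 differed by 2-fold between these mutants, where 14.5% of all genes did, 9.93% with the higher value in Suz12Δ cells. Of the 12 fibroblast markers, 12 in Suz12Δ and 11 in Eednull cells were at least 2-fold higher than in E14, and 9 of 10 neural and motor neuron markers were lower in each. The part of these cells in the Dnmt3a and Dnmt3b values was not tested.

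The Suz12GT cells differed from E14 in other genes. Dnmt3l, at 1.01 FPKM against a value listed at 0, was the only gene called, where 21.2% of all genes were past 2-fold, 16.8% higher and 4.4% lower. Nanog was likewise at 1.21 FPKM in Suz12GT cells and listed at 0 in E14, and 8 of 10 ESC markers were higher (median 2.29). Of 12 fibroblast markers, 10 were higher (median 1.96). With the minimum and pseudocount of 0.1 FPKM, genes listed at 0 in E14 are called whenever they are tested, among them Dnmt3l, Nanog, Klf4 and Lum. The part of cells that kept ESC expression, or of fibroblasts, in the Dnmt3l value was not tested. Uhrf1, with a log2 ratio of -0.80, was the lowest of the other 7 genes, and 5.76% of all genes had a lower ratio. Dnmt1 (-0.22), Dnmt3b (-0.22), Tet1 (0.13), Dnmt3a (0.19), Tet3 (0.30) and Tet2 (0.38) lay nearer to the median of all genes, 0.13.

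The genes whose profile over the 8 libraries was most like that of each member were found by the root mean square (RMS) difference of log2 profiles, each centred on its own mean. None are given for Dnmt3l, since with 3 of 8 values listed at 0 its distances are set by the pseudocount. Uhrf1 had Gm15645 (0.119), Gas2l3 (0.121) and the replicative helicase gene Mcm4 (0.127). Tet1 had Hdc (0.135), Cnga3 (0.233) and Rlbp1 (0.254). These 3 genes were at 0.103 FPKM or less in every day 5 library, about the pseudocount of 0.1 or below it. Their distances to Tet1 are therefore set in part by the pseudocount. Dnmt3b had Gm14490 (0.181), Pml (0.243) and EU599041 (0.258). Each profile holds 8 points only. For Tet3 the nearest were Gpsm1 (0.171), Pygo1 (0.209) and Plekho1 (0.226), for Tet2 Nup98 (0.12), A830080D01Rik (0.131) and Sema4d (0.138), for Dnmt1 Gm7535 (0.0931), Zfp317 (0.101) and Cpsf1 (0.102), and for Dnmt3a Cutc (0.205), Lrrc1 (0.205) and Cmtm4 (0.209). Among the members, Uhrf1 and Tet2 (0.409), Dnmt3b and Tet1 (0.428) and Dnmt1 and Tet2 (0.429) were the most alike pairs.

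The partners and regulators of these enzymes, listed by function, are given next over E14 differentiation, where 18.3% of all genes were higher and 25.8% lower, as above. Shares of a list near these values say nothing particular of the list. Of 7 maintenance partners, 2 were lower and none higher, namely Usp7, a deubiquitinase that binds DNMT1 (142.9 to 56.9 FPKM), and the chromatin remodeler Hells (59.8 to 27.1 FPKM). After division of values by their sum, 2 of the 7 were higher and none lower. Of 13 regulators of de novo methylation 5 were lower, among them Morc1 (10.4 to 0.0301 FPKM), Zfp57, which guards imprinted methylation (52.1 to 18.3 FPKM), and Dppa3 and Prdm14, at 6.53 and 5.39 FPKM in ESCs and listed at 0 at day 5. The median log2 ratio of the 13 was -0.36, against -0.20 over all genes, and with values divided by their sum 3 were higher and 3 lower.

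Among 13 genes of active demethylation and base excision repair, 4 were lower and 1 higher over E14 differentiation, against the same 25.8% and 18.3% of all genes, and 4 were lower and 4 higher with values divided by their sum. Gadd45a fell from 43.8 to 8.73 FPKM and Gadd45b from 5.65 to 0.723 FPKM, and the uracil glycosylase gene Smug1 went from 3.42 to 12.5 FPKM. Of 9 Tet partners and cofactor genes 3 were higher and 2 lower, against 18.3% and 25.8% of all genes. Cxxc4, whose CXXC protein binds TET2, went from 0.316 to 11.3 FPKM in E14, and Idh1, an enzyme that makes the Tet cosubstrate 2-oxoglutarate, from 35.7 to 141 FPKM. At day 5 Idh1 was at 42.9 FPKM in Suz12Δ and 37.4 FPKM in Eednull cells, both more than 2-fold below E14. Wt1, a transcription factor that binds TET2, was at 0.327 FPKM in E14, 1.38 FPKM in Suz12GT, 28.8 FPKM in Suz12Δ and 36.3 FPKM in Eednull cells at day 5.

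Among the readers of methylated CpG, Zbtb33 went from 4.45 FPKM in E14 ESCs to 15.0 FPKM at day 5, and Zbtb38 from 5.79 to 1.65 FPKM. The 4 CpG island binding genes found in the table were all short of 2-fold, between -0.16 and 0.18. Of 11 genes that supply or use S-adenosylmethionine, the methyl donor of the DNMTs, 3 were lower and 1 higher, against 25.8% and 18.3% of all genes, and the threonine dehydrogenase gene Tdh fell from 170 to 0.140 FPKM. In the other ESCs Tdh was at 118 FPKM in CJ7, 22.6 FPKM in Suz12Δ and 46.4 FPKM in Eednull cells.

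Germline genes, known for promoters that DNA methylation silences in somatic cells, were read as a list of 12. In E14, 10 of the 11 tested were lower at day 5 than in ESCs and none was higher (median log2 ratio -4.70), against 25.8% of all genes lower, as with Sycp3, of the meiotic synaptonemal complex, which went from 29.7 to 0.115 FPKM. At day 5, 11 of 12 were higher in Suz12Δ than in E14 (median 3.05), against 26.6% of all genes, and 7 of 8 tested were higher in Eednull cells (median 2.75), against 21.6%. In Suz12GT cells 3 of 7 tested were higher and none lower (median 0.91), against 16.8%. Dazl, Taf7l, Hormad1, Mov10l1, Tex101, Asz1 and Dpep3 were listed at 0 in E14 at day 5. With a pseudocount and a minimum of 0.1 FPKM, a gene listed at 0 in a library compared passes 2-fold whenever it is tested. The calls of these genes against E14 day 5 cells were therefore fixed by the filter, and the medians rest in part on the pseudocount. Dazl, an RNA-binding protein gene of germ cells, was listed at 0 in E14 and stood at 0.987 FPKM in Suz12GT, 5.72 FPKM in Suz12Δ and 0.934 FPKM in Eednull cells. Ddx4, the germline RNA helicase gene, was at 0.250, 0.828, 3.40 and 3.03 FPKM in the same order. In the same comparisons 9 of 11 ESC markers were higher in Suz12Δ cells (median 2.85), 5 of 9 in Eednull cells (median 1.08) and 8 of 10 in Suz12GT cells (median 2.29). Nanog and Klf4, among these markers, were likewise listed at 0 in E14 at day 5. DNA methylation at these genes was not analysed here, and the part of remaining ESC-like or fibroblast RNA in their levels was not tested.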

How the data were processed

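The 8 mouse RNA-seq libraries, 1 per condition, were grouped by the sample labels. In the deposited table each gene has FPKM values that the authors made from total RNA. Reads were aligned by Bowtie 0.12.7 within Tophat 1.3.2, with Ensembl genes on NCBI build 37 (mm9) as a guide, and Cufflinks 1.2.1 with its Cuffdiff program estimated expression, with corrections for sequence bias and for reads that map to several places. Such corrections divide shared reads by estimate, and Cuffdiff can list a gene at 0 when its estimate fails. All 8 value columns matched a sample, with 0 columns left over. Reads and depth were not given in the table. Comparing low values between libraries gave no steps of single reads, with at most 4.74% of low genes at the commonest ratio. Precision from counting is therefore unknown.

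FPKM were used as deposited. Log2 ratios used a pseudocount of 0.1 and a minimum of 0.1 FPKM in either library, which understates the change of low genes, and 2-fold was the limit for a call. No test was made. The calculation was tested on simulated data. Shares within a family and ratios within a library are independent of scaling. The settings varied were the pseudocount (1 or 0.01), the minimum (1 FPKM or none), CJ7 in the place of E14 ESCs, a common 75th percentile (taken from the 17842 genes that no library lists at 0) and the Dnmt3 family without Dnmt3l. Division of values by their sum, the same division and the 75th percentile scaling for the lists, restriction to genes above 0 in both libraries and CJ7 as the ESC of the E14 time course were added after seeing the data.

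The members and the gene lists (13 lists beside the members, 130 genes) were chosen with earlier results of these data known. All members were named, up to 4 genes per list with the largest absolute log2 ratio among those at 1 FPKM or more, and the 3 genes nearest to each member by RMS difference. Aire, Cdt1, Tubb3, Pcna and the values of list genes outside the comparison that named them were added after seeing the data. Positions came from GENCODE vM1, which held 36104 of the 36808 genes, and promoters from RefSeq (GRCm38.p6), which matched all 8 members with 15 promoters. The counts over the list of methyl-CpG readers are not reported here. Protein sequences were not used here, and H3K27me3 and bisulfite data were not analysed here. Software was pandas 2.3.3, NumPy 2.4.6 and matplotlib 3.10.9 under Python 3.11.15.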

Additional observations from a re-analysis of the deposited data

Results flagged for a closer look

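The log2 ratio of day 5 to ESCs had opposite signs in E14 and in a mutant line for 4 of the 8 genes, and the difference was not tested, with 1 library per condition. For Dnmt1 it was 0.82 in Suz12Δ and 0.37 in Eednull cells against -0.50 in E14, and the E14 value was 0.39 with CJ7 as the ESC library. For Dnmt3a it was 1.82 in Suz12Δ cells against -0.29 in E14, and for Uhrf1 it was 0.58 in Suz12Δ cells against -0.75 in E14. For Tet2 it was 0.30 in Suz12Δ and 0.25 in Eednull cells against -1.26 in E14. The median of all genes was 0.43 in Suz12Δ, -0.08 in Eednull and -0.20 in E14 cells.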

How the results depend on the processing

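With libraries scaled to the same 75th percentile, the number of the 8 genes past 2-fold was 2 in place of 4 for Suz12Δ against E14 ESCs, 1 in place of 0 for CJ7 against E14 ESCs and 1 in place of 2 for Suz12Δ against E14 cells at day 5. With values divided by their sum it was 2 in place of 4 for Suz12Δ ESCs, 2 in place of 1 for Eednull ESCs and 3 in place of 0 for Eednull cells at day 5. A pseudocount of 1 left 1 of 2 in Suz12Δ cells at day 5, and genes above 0 in both libraries left 0 of 1 in Suz12GT cells, where the gene removed was Dnmt3l. Without Dnmt3l, the Dnmt3b share of the Dnmt3 family was 77.5% in E14, 74.8% in CJ7, 79.0% in Suz12Δ and 69.6% in Eednull ESCs, and 18.2% in Suz12GT cells at day 5. The other 61 counts and shares stayed within 1.5 times the value from the deposited FPKM, though some counts moved by 1 gene. Of the single-gene values under these alternatives, 449 kept their sign and their side of 2-fold, 19 changed sign short of 2-fold in the deposited values, 10 fell short of 2-fold and 7 newly passed it. The cause of these changes was not tested. The share of all genes past 2-fold was 21.2% to 44.1% over the 9 comparisons, 6.24% to 22.8% with a pseudocount of 1, 13.7% to 38.2% with a minimum of 1 FPKM, 12% to 28.9% with no minimum and 15.7% to 36.6% with genes above 0 in both libraries. No paired analysis was possible because each condition had 1 library and no result came from a test. Differences between lines, strains, batches and cultures cannot be told apart, and depth is unknown.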

Other observations

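Of 11 genes of the S-adenosylmethionine cycle, 4 were at least 2-fold lower in Suz12Δ than in E14 ESCs and none was higher (median log2 ratio -0.94, against -0.28 over all genes), where 22.8% of all genes were lower. On values divided by their sum 3 were lower, the median was 0.08 against 0.70 over all genes, and 6.48% of all genes were lower. Gldc, of the glycine cleavage system, was at 37 FPKM in E14, 22.6 FPKM in CJ7, 6.63 FPKM in Suz12Δ and 19.0 FPKM in Eednull ESCs. The methyl-CpG reader Zbtb4 was at 0.913 FPKM in E14, 0.609 FPKM in CJ7, 6.72 FPKM in Suz12Δ and 1.41 FPKM in Eednull ESCs. At day 5 Gadd45g, a growth arrest and DNA damage gene, was at 43.6 FPKM in E14, 23.9 FPKM in Suz12GT, 12 FPKM in Suz12Δ and 9.99 FPKM in Eednull cells.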
